A study of Bos taurus with 13 samples.

Results

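Thymus was set against lymph tissue and spleen, a primary against secondary lymphoid organs, on a bovine mammary cDNA microarray. Each organ was hybridised on 1 array, with total RNA of the tissue in channel 2 and total RNA of a cell line named BovMac in channel 1 as the common reference, so these were 3 of the 13 arrays of the series. The other arrays hold 5 further tissues against the same reference (ileum, adipose, adrenal and liver tissue, and prepubertal mammary gland of a Holstein heifer of 136 kg), 3 comparisons of mammary gland stages, and 2 arrays of the reference against itself. On 1 of the latter the labels spell the line BovMav. The labels give no breed, age, sex or number of animals for the thymus, lymph tissue or spleen, and "lymph" is not specified further. The quantity followed is the thymus log ratio minus the mean of the lymph and spleen log ratios, per gene, after each array was centred on its median. It could be computed for 702 of the 706 genes that the platform annotation names.

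The thymus is where T cells mature and are selected on self peptides shown by major histocompatibility molecules, mostly by epithelial and dendritic cells. Lymph nodes and spleen are where mature B and T cells meet antigen, and they are rich in B cells, which carry class II molecules. The spleen also filters blood and has a capsule and trabeculae with smooth muscle. The array was built from mammary transcripts, and the classical lineage markers were thinly covered: the lists of thymocyte and T cell, B cell and plasma cell, macrophage and dendritic cell, erythroid, and neutrophil and mast cell markers had 0 measured genes each. The identity of the 3 tissues could therefore not be checked against those lists. The thymic epithelium list had 3 measured genes, with 1 positive difference (KRT7), 2 negative ones (EPCAM and ELF5) and a median of -0.17. None of them was counted. SLC46A2, a transporter known from thymic stroma and named here after its values were seen, stood at 0.21 ± 0.05 (SD over 3 spots) in thymus, 0.07 ± 0.02 in lymph tissue and 0.03 ± 0.10 in spleen, a difference of 0.16 that was not counted.

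Values are deposited log ratios whose base is not stated, so no value is given as a fold. The order of the channels in the ratio is not stated either. "Above" and "below" refer to the deposited sign, and if the ratio runs reference over tissue, above and below trade places for every gene. All 3 arrays have tissue and reference in the same channels per the labels. The 3 arrays correlated positively with each other across genes, and all share the reference RNA and the clones.

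Lymph tissue and spleen resembled each other more than either resembled thymus. Across genes the Spearman rho was 0.72 between lymph tissue and spleen (Pearson r 0.72), 0.52 between thymus and lymph tissue (r 0.49) and 0.43 between thymus and spleen (r 0.40). Correlations with tissues that are not lymphoid reached a like size: rho was 0.42 between thymus and adipose tissue, 0.42 between thymus and prepubertal mammary gland, 0.50 between spleen and adipose tissue and 0.45 between lymph tissue and mammary gland. With liver rho was -0.09 for thymus, 0.24 for lymph tissue and 0.33 for spleen. The differences between thymus and the mean of the other pair had an SD of 0.23 over genes, against 0.17 for lymph tissue minus spleen. At a size of 0.3 log units or more, either side, lymph tissue minus spleen held 44 genes (6.27% of 702; 18 or 2.56% above and 26 or 3.70% below). Thymus minus lymph tissue held 129 (18.4%), with 77 (11.0%) above and 52 (7.41%) below. Thymus minus spleen held 153 (21.8%), with 92 (13.1%) above and 61 (8.69%) below. Each array by itself had a like share of genes 0.3 or more from 0, namely 125 (17.8%) in thymus, 131 (18.7%) in lymph tissue and 118 (16.8%) in spleen. With 1 array per organ, a property of the thymus array cannot be told apart from a property of the thymus.

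**Figure D1:**
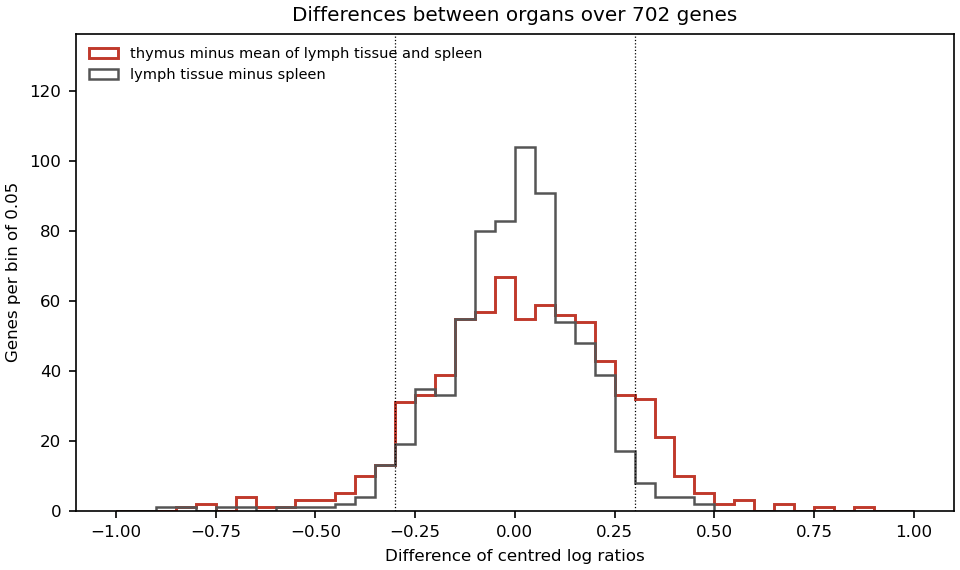
Histogram over genes of the thymus value minus the mean of lymph tissue and spleen (red) and of lymph tissue minus spleen (grey), in log units of unstated base, with dotted lines at 0.3 and -0.3. The red curve is wider, with an SD of 0.23 against 0.17.

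Several measures of error bear on a single gene. The spread over the spots of a gene, which were mostly of 1 clone, was small. The SD over spots, pooled over the 3 arrays, had a median of 0.10 log units. For genes with several clones it also holds the difference between clones. It was widest on the thymus array (median 0.11, against 0.06 in lymph tissue and 0.07 in spleen), and its part in the wider thymus differences was not tested. In all, 629 genes were printed as exactly 3 spots. Different clones of 1 gene agreed less. For 73 genes with more than 1 clone, the SD between clones of the thymus difference was 0.21, the correlation over the 67 genes with exactly 2 clones was 0.19, and 38 of the 73 had the same sign in all clones. The actin gene ACTB, printed as 150 spots, lay at 0.02 on average, and of its spots taken in groups of 3, 5 of 50 groups lay at 0.3 or more above and 0 below. The reference against itself lay 0.3 or more from 0 for 101 of 700 genes (14.4%) on array 1 and 183 of 681 (26.9%) on array 2. No p-value was made, since no organ has a second array.

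Of the 702 genes, 77 (11.0%) lay above and 43 (6.13%) below, 120 (17.1%) in all, counting a gene when thymus was outside both other organs on that side and at least 0.3 from their mean. Of the 77 genes above, 67 had thymus at or above 0 and 53 had lymph tissue and spleen both below 0. The median was 0.12 in thymus against -0.24 in the mean of the other pair. Of the 43 genes below, 42 had thymus below 0 and 7 had lymph tissue and spleen both below 0, with a median of -0.31 in thymus against 0.09. The difference was larger than the pooled spot SD for 74 of the 77 (10.5% of all genes) and for all 43 below. The smallest gene counted above was KRR1 (0.30), next to VCAN just outside (also 0.30 when rounded), and the smallest counted below was HYAL1 (-0.30), next to LOC509810 (-0.29).

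**Figure D2:**
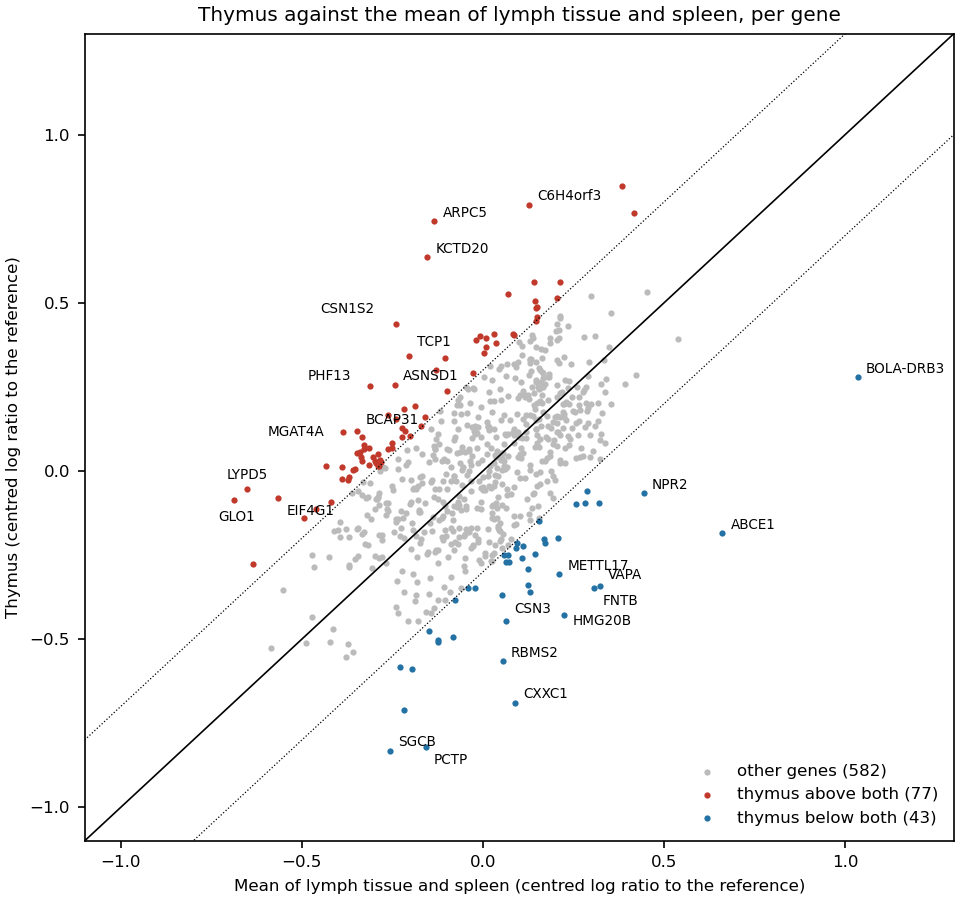
Each point is 1 gene, with the mean of lymph tissue and spleen on the horizontal axis and thymus on the vertical axis, as centred log ratios to the reference. The solid line marks equal values and the dotted lines 0.3 log units either side. 77 genes are drawn in red above and 43 in blue below, and BOLA-DRB3 lies far to the right of all others.

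The class II gene BOLA-DRB3 had high ratios in both secondary organs and a lower one in thymus. It encodes the DR beta chain, which presents peptides to CD4+ T cells. It stood at 0.28 ± 0.12 (SD over 3 spots) in thymus, 1.03 ± 0.05 in lymph tissue and 1.04 ± 0.11 in spleen, a thymus difference of -0.75. Lymph tissue and spleen differed by less than their spot SDs, and thymus lay 0.75 below the nearer of them. Its value was nearer to those of prepubertal mammary gland (0.42), adipose tissue (0.13), adrenal tissue (0.05) and liver (0.01). The invariant chain CD74, which guides class II molecules through the cell, pointed the same way with a smaller size: 0.08 ± 0.06 in thymus, 0.48 ± 0.08 in lymph tissue and 0.19 ± 0.06 in spleen, a difference of -0.25 that was not counted. In a tissue, fewer cells of a type and less RNA per cell cannot be told apart, and the part of cell composition was not tested. FCGR2B, an Fc receptor of B cells and myeloid cells that is in none of the lists and was named after its values were seen, stood at 0.15 ± 0.23 (9 spots) in thymus, 0.12 ± 0.08 in lymph tissue and 0.17 ± 0.07 in spleen.

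Genes of class I presentation had smaller differences. BOLA, a class I heavy chain, stood at 0.16 in thymus, 0.15 in lymph tissue and 0.21 in spleen, a difference of -0.02 with a pooled spot SD of 0.07. TAP1, which carries peptides to class I molecules, stood at 0.28, 0.25 and 0.08. PDIA3, a disulfide isomerase of the peptide-loading complex, lay below both (-0.13 against 0.09 and 0.12), a difference of -0.24 that is close to that of CD74. In the antigen presentation list of 5 measured genes, 0 were above and 1 below, where all genes had 11.0% and 6.13%. The median difference was -0.24, against 0.03 over all genes. Against spleen alone the median was -0.11.

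The largest negative difference was that of ABCE1, which recycles ribosomes after translation stops. ABCE1 stood at -0.19 ± 0.29 in thymus, 0.51 ± 0.37 in lymph tissue and 0.81 ± 0.28 in spleen, so its spots scattered widely although the organs kept their order. Spots were tighter for a pair of chromatin genes. CXXC1, the CpG-binding subunit of the SETD1 histone methyltransferase complexes, stood at -0.69 ± 0.01 in thymus, -0.05 ± 0.03 in lymph tissue and 0.22 ± 0.05 in spleen. HMG20B, a subunit of the LSD1-CoREST repressor complex, stood at -0.43 ± 0.03, 0.11 ± 0.02 and 0.34 ± 0.02 in the same order. For both, thymus was clear of the other organs by many times the spot SD, which does not cover the position on the array. With arrays centred within runs of consecutive rows, HMG20B lay at -0.51 instead of -0.65 and CXXC1 at -0.71 instead of -0.78. SETD1A, the catalytic partner of CXXC1, lay on the other side at a difference of 0.19, under the limit.

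PCTP, a phosphatidylcholine transfer protein, was at -0.82 ± 0.15 in thymus, -0.41 ± 0.07 in lymph tissue and 0.10 ± 0.04 in spleen; here lymph tissue stood between the others, and the thymus difference was -0.41 against lymph tissue alone and -0.92 against spleen alone. VAPA, which tethers the endoplasmic reticulum to other membranes, was at -0.34 ± 0.09, 0.16 ± 0.14 and 0.49 ± 0.12. FNTB, the beta subunit of farnesyltransferase, was at -0.35 ± 0.15, 0.24 ± 0.07 and 0.37 ± 0.02. VAPA and FNTB had opposite signs in thymus and in the secondary organs. With arrays centred within runs, VAPA lay at -0.52 instead of -0.66 and FNTB at -0.51 instead of -0.65. Both shifted by the same amount as HMG20B, which places VAPA, FNTB and HMG20B in the same run of rows with a common offset. The part of that position in their like profiles was not tested. PCTP went the other way, from -0.66 to -0.75.

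RBMS2, an RNA-binding protein, stood at -0.56 ± 0.11 in thymus against 0.02 ± 0.04 and 0.09 ± 0.09. SGCB, the beta-sarcoglycan of the muscle membrane complex, had the lowest thymus value of all genes, -0.83 ± 0.11, against -0.14 ± 0.09 in lymph tissue and -0.37 ± 0.01 in spleen. METTL17, needed for the mitochondrial ribosome, lay at a difference of -0.52, and CSN3, the gene of kappa-casein, at -0.51. NPR2, a natriuretic peptide receptor, also lay at -0.51, with an SD of 0.55 over its thymus spots that exceeded the difference. In all 12 genes, NPR2 included, thymus lay further from the nearer organ than the SD pooled over the 3 arrays.

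On the upper side, ARPC5, a subunit of the Arp2/3 complex that branches actin filaments, had the largest difference, 0.88, with 0.74 ± 0.13 in thymus, -0.54 ± 0.64 in lymph tissue and 0.27 ± 0.35 in spleen. Lymph tissue and spleen did not agree on ARPC5, and the difference was 1.28 against lymph tissue and 0.47 against spleen alone. The chaperonin subunits TCP1 and CCT5, which fold actin and tubulin, lay at differences of 0.55 and 0.46. Spots scattered less for CCT5, at 0.53 ± 0.11 in thymus, 0.04 ± 0.04 in lymph tissue and 0.10 ± 0.08 in spleen. TCP1 had spot SDs of 0.21 to 0.48. On reference against reference array 1, however, CCT5 stood at -0.90 ± 0.14. CCT4, another subunit of that ring, stood at -0.05, 0.18 and -0.01, a difference of -0.13.

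KCTD20 was carried by 2 clones that gave 0.83 and 0.67, the second largest gene difference at 0.79. C6H4orf3 stood at 0.79 ± 0.05 in thymus against 0.29 ± 0.22 in lymph tissue and -0.04 ± 0.28 in spleen. CSN1S2, the gene of alpha-S2 casein, stood at 0.44 ± 0.27, -0.37 ± 0.20 and -0.12 ± 0.23, so that 2 casein genes, CSN1S2 and CSN3, lay on opposite sides. PHF13, a reader of methylated histone H3, was at 0.25 ± 0.06 in thymus, -0.23 ± 0.01 in lymph tissue and -0.40 ± 0.08 in spleen, and BCAP31, a membrane protein of the endoplasmic reticulum, at 0.12 ± 0.02, -0.24 ± 0.04 and -0.46 ± 0.05. PHF13 and BCAP31 were clear of both organs by several spot SDs.

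For GLO1, LYPD5 and EIF4G1 thymus was near 0 and both secondary organs were well below it. GLO1, which detoxifies methylglyoxal, was at -0.09 ± 0.36 in thymus, -0.66 ± 0.26 in lymph tissue and -0.71 ± 0.53 in spleen. LYPD5 was at -0.05 ± 0.05, -0.59 ± 0.05 and -0.71 ± 0.20. EIF4G1, the scaffold of the cap-binding complex, was at -0.08 ± 0.14, -0.60 ± 0.30 and -0.53 ± 0.06, with clones at 0.61 and 0.36. Its ratio on the arrays of the reference against itself was also negative, at -0.63 and -1.02. MGAT4A, which branches N-glycans, lay at a difference of 0.50, as did ASNSD1 (0.26 in thymus, -0.12 in lymph tissue and -0.36 in spleen), which stood at -0.91 on reference against reference array 2.

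**Figure D3:**
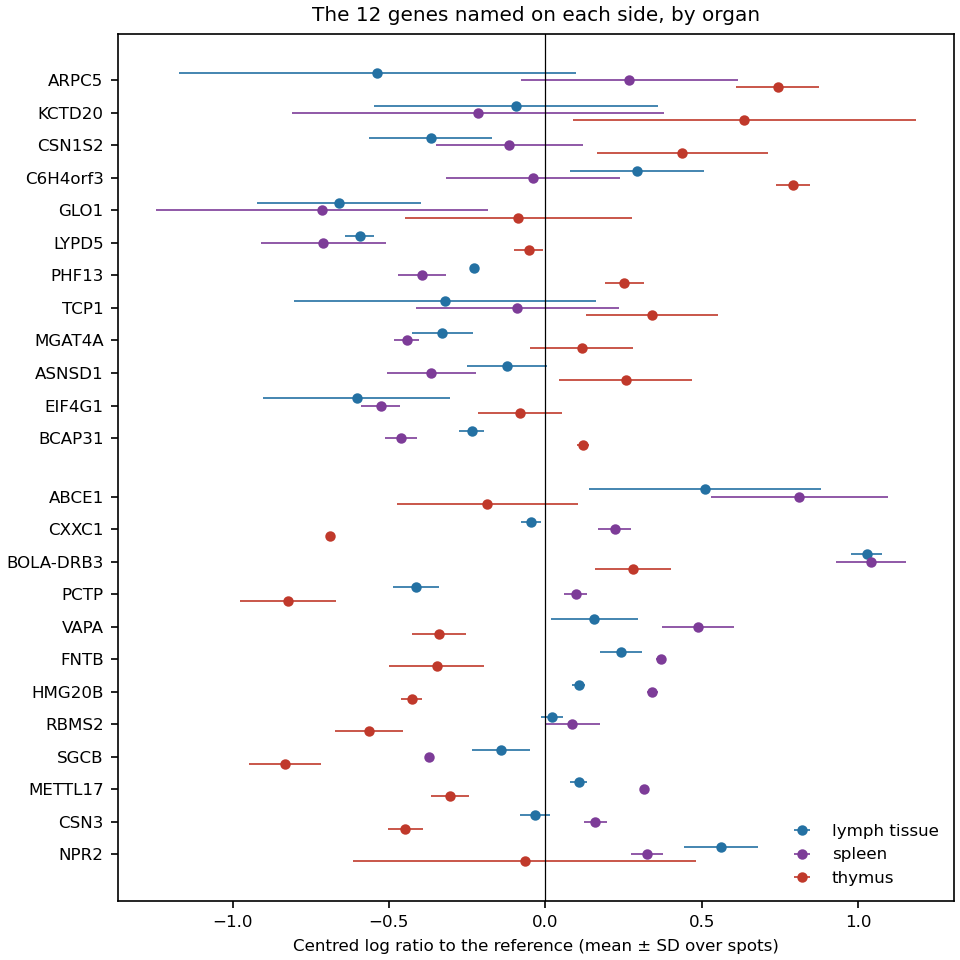
Centred log ratios of the 12 genes named on each side, as mean and SD over spots (mostly 3), for lymph tissue (blue), spleen (purple) and thymus (red). Thymus lies to the right of both organs for the upper 12 and to the left for the lower 12, which is how they were chosen; the bars show which of them are wide, such as KCTD20, GLO1 and NPR2.

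Several clones of 1 gene were measured for 5 of the 120 genes counted, and in all 5 the clones lay on the same side. KCTD20, EIF4G1 (above) and SFPQ (below, -0.31 and -0.34) passed 0.3 in every clone. ZNF330 (0.60 and 0.28) and the desaturase SCD (0.40 and 0.21) did so in 1 clone. In that SCD clone thymus (0.49) was not outside both organs, with lymph tissue at 0.51 and spleen at -0.33. The pooled spot SD of SCD (0.34) exceeded its difference (0.32). The mean of the clones had put these genes on the list, so this is a description. Elsewhere clones disagreed: LALBA, LAS1L and PSMC2 each had 1 clone at least 0.3 above and another at least 0.3 below, and none of the 3 was counted.

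Of 13 leukocyte genes measured, 10 had positive differences, as had 377 of the 702 genes, and the median was 0.10. Counted above were 2 (11.0% of all genes were) and below 0. The median was 0.01 when arrays were centred within runs of consecutive rows. CD47, the surface signal that restrains phagocytosis, stood at 0.77 ± 0.16 in thymus (2 spots), 0.42 ± 0.07 in lymph tissue and 0.41 ± 0.14 in spleen, and had -1.14 on reference against reference array 1. CD99, an adhesion protein, was at 0.03, -0.07 and -0.49, so that thymus was only 0.10 from lymph tissue. The pan-leukocyte phosphatase PTPRC (0.06, -0.10 and -0.09) and the actin bundler LCP1 (-0.17, -0.35 and -0.34) lay above both organs by less than 0.3. CSF3, the granulocyte growth factor, was the other way at -0.25 and stood highest in spleen (0.44). CD74, also on this list, had the same difference, and LGALS9 lay at -0.13.

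Genes of cell division did not lie on 1 side. Of 12 measured, 0 were above and 2 below, where all genes had 11.0% and 6.13%. The median was 0.02. CETN2, a centrin of the centriole, was at -0.71 ± 0.07 in thymus, -0.35 ± 0.05 in lymph tissue and -0.09 ± 0.08 in spleen. RPA1, which coats single-stranded DNA, was at -0.20 ± 0.06, 0.08 ± 0.06 and 0.26 ± 0.03. The helicase subunits MCM7 (0.21), MCM6 (0.14) and MCM3 (0.09) and the checkpoint gene BUB3 (0.20) had positive differences, PCNA lay at -0.02 and the survivin gene BIRC5 at 0.07. None of these 6 reached 0.3.

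Chromatin and transcription regulators had 5 of 20 above and 1 below, where all genes had 11.0% and 6.13%. Their median of 0.09 was 0.01 against lymph tissue alone and 0.19 against spleen alone. Beside PHF13 and ZNF330 they were CHD4, the NuRD remodeller (0.17, -0.39 and -0.14), TAF13 of TFIID (0.07, -0.30 and -0.36) and SNAPC3 (0.10, -0.10 and -0.31). The 1 below was CXXC1; HMG20B is not in the list. Of 29 genes of RNA splicing and processing, 20 had negative differences, as had 325 of the 702 genes, with 2 above and 3 below, near the shares of all genes. Their median was -0.09, and it was -0.05 with arrays centred within runs and -0.06 against lymph tissue alone. Beside RBMS2, TUT7, which adds uridine to RNA ends, was at -0.37 against 0.04 and 0.07, and the spliceosome protein PRPF4 was at -0.35 against -0.03 and -0.02. The helicase DDX39A (0.34) and QKI (0.33) were the 2 above. For lists of this size and with 1 array per organ, the counts describe these arrays only.

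The secretory pathway list of 36 genes had 4 above and 1 below and a median of 0.06, close to all genes. BET1 (0.36), ARL6IP1 (0.38), AP3M1 (0.38) and EXOC4 (0.35) of vesicle traffic were above. SEC23B of the COPII coat was below, at -0.10 ± 0.09 in thymus against 0.35 and 0.16. In the translation list 2 of 17 were above (EIF4G1, and AIMP1 of the tRNA synthetase complex at 0.35) and 1 below (RSL1D1 at -0.32). These counts were near the shares of all genes. Chaperones had 2 of 11 above, TCP1 and CCT5, and 0 below, where all genes had 11.0% and 6.13%. The actin list had 2 of 15 above, ARPC5 and the capping protein CAPZA1 (0.40), near the 11.0% of all genes, and a median of -0.01 that was 0.05 against lymph tissue alone and 0.08 against spleen alone.

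In the solute carrier list SLC39A8, a zinc and manganese importer, was above at 0.36 and SLC1A5, a glutamine transporter, below at -0.38, of 16. MFSD1 of the lysosome membrane (0.34) and the hyaluronidase HYAL1 were the 2 counted of 9 in the lysosome and sphingolipid list. PDCD4 was the 1 above of 8 in apoptosis and autophagy (0.31), and RNF8, a ubiquitin ligase of the DNA damage response, the 1 above of 20 in the proteasome and ubiquitin list (0.31). Growth factor and cytokine signalling (15 genes, from IL6 at -0.28 to CSF2RB at 0.25), oxidative phosphorylation (5 genes, from NDUFB11 at -0.19 to SDHD at 0.22) and the mitochondrial ribosome (4 genes, from -0.25 to 0.20) had 0 genes on either side. Over all genes 11.0% were above and 6.13% below.

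**Figure D4:**
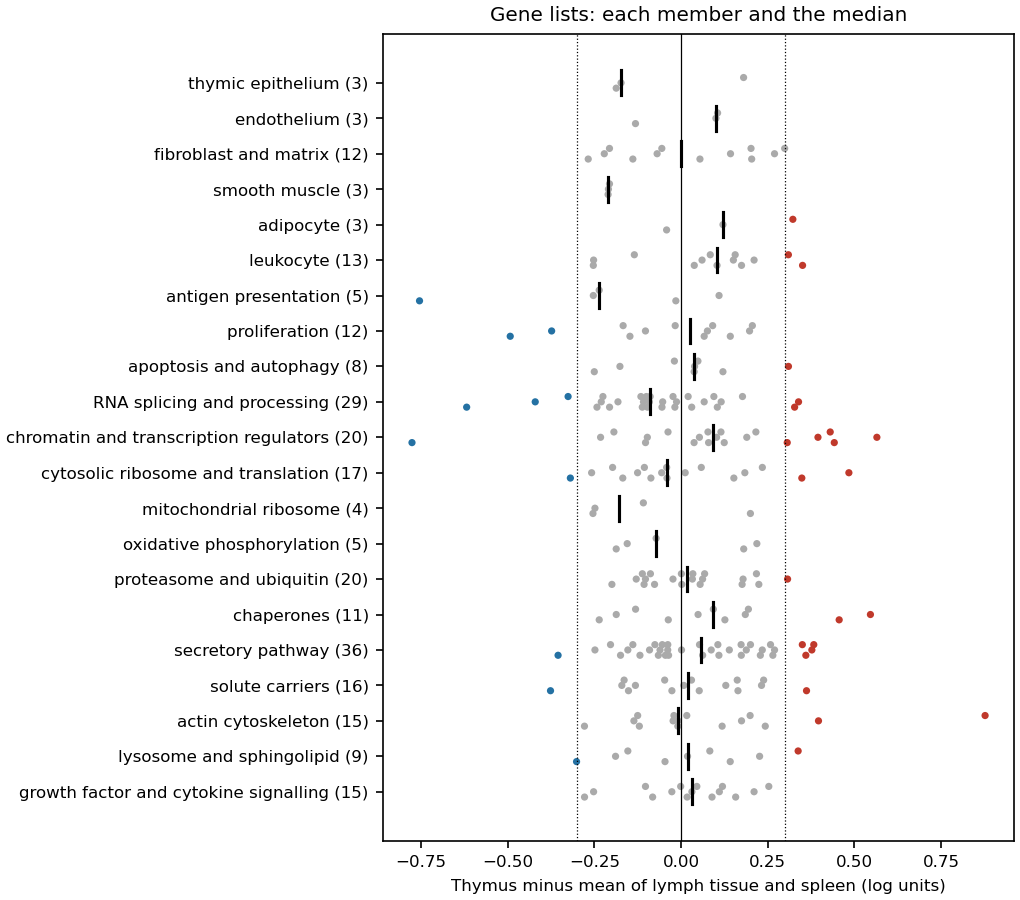
Thymus minus the mean of lymph tissue and spleen, in log units, for each member of the lists with at least 3 measured genes; the number measured stands in parentheses, the black bar is the median, and red and blue mark genes counted above and below. Most members lie within 0.3 of 0 in every list.

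Cell type lists other than leukocytes were short. Smooth muscle was represented by MYH11, TPM1 and ACTG2, each with a difference of -0.21, under the limit. For MYH11 and TPM1 spleen was the organ that stood apart: MYH11 was at -0.07 ± 0.03 in thymus, -0.02 ± 0.03 in lymph tissue and 0.30 ± 0.03 in spleen, and TPM1 at -0.17, -0.19 and 0.27. ACTG2 was at -0.26, -0.10 and 0.00, with thymus further from lymph tissue than lymph tissue from spleen. Of 12 fibroblast and matrix genes 0 were counted, where 17.1% of all genes were. Among them 6 differences were positive and 6 negative, and they ran from POSTN (-0.27) to VCAN (0.30). For the genes of the thymic epithelium list, EPCAM (0.00, 0.21 and 0.16), ELF5 (-0.14, 0.07 and -0.01) and KRT7 (-0.29, -0.37 and -0.57), the differences were -0.19, -0.17 and 0.18. The 3 endothelial genes ran from CD300LG (-0.13) to CAV1 (0.11), whose clones lay on opposite sides at 0.35 and -0.14. Of 3 adipocyte genes SCD (0.32, with a pooled spot SD of 0.34) was above, with GPAM at -0.04 and CD36 at 0.12.

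In 343 of 702 genes (48.9%) lymph tissue and spleen were closer to each other than thymus was to the nearer of them. That held for 64 of the 77 genes above (9.12% of all genes) and 38 of the 43 below (5.41%), a share that the rule for counting itself favours. Thymus was at least 0.3 above each organ separately for 46 genes (6.55%) and at least 0.3 below each for 26 (3.70%). The widest disagreements between lymph tissue and spleen were those of LASP1 (-0.02 and 0.86), ARPC5, ALKBH1 (-0.33 and 0.37) and HHEX (-0.53 and 0.16), with pooled spot SDs of 0.28 to 0.44. LASP1 had thymus between them at 0.29.

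Where both secondary organs were themselves 0.3 or more from 0, thymus followed in part. Of 11 genes positive in both, 4 reached 0.3 in thymus: CD47, DCTN5, ASF1A and ANXA8L1. Another 4 were positive in thymus under 0.3, among them BOLA-DRB3 and SAT1, a polyamine acetyltransferase (0.26, 0.46 and 0.33). The other 3 were negative in thymus: ABCE1, NPR2 and the matrix protein MATN2, which stood at -0.10 ± 0.13 against 0.32 ± 0.05 and 0.32 ± 0.01. Of 42 genes negative in both, 9 were as far below 0 in thymus, BUB3 among them, 24 were negative by less, and 9 were positive. The 9 that turned positive include TRAM1 of the translocon (0.01, -0.38 and -0.40), TAF13, MGAT4A and MTHFD2, a folate enzyme of mitochondria. Their thymus values were small, with MGAT4A highest at 0.12.

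The opposite pattern, a thymus ratio 0.3 or more from 0 with both secondary organs on the other side of 0, was found for 13 genes. Of 73 genes positive in thymus at that size these were CLIC4, CSN1S2, KCTD20, TCP1 and ZNF330. Of 52 negative ones they were FNTB, HARS2, HMG20B, METTL17, PIP5K1A, RBMS2, TUT7 and VAPA. PIP5K1A, a kinase that makes a signalling phosphoinositide, stood at -0.36 ± 0.03 in thymus against 0.14 ± 0.07 and 0.12 ± 0.05, and HARS2, the mitochondrial histidyl-tRNA synthetase, at -0.34 against 0.02 and 0.24.

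Against the other tissues, thymus stood at the end of the range more often for the lower side than for the upper. Thymus was the lowest of the tissue arrays for 37 of the 43 genes below (86.0%) and the highest for 33 of the 77 above (42.9%), where over all 702 genes it was lowest for 16.7% and highest for 13.5%. All 8 tissues had a value for 75 of the 77, all 43 and 695 of the 702, and the other genes were ranked among fewer. The rule had already placed thymus outside lymph tissue and spleen, so only the position against the other 5 tissues adds to it. Of the 12 named genes below, 11 had thymus lowest, the exception being BOLA-DRB3, for which lymph tissue, spleen and ileum (3.17) stood high. Ileum was also far above thymus for ABCE1 (1.64), FNTB (1.37) and VAPA (1.05). Of the 12 named genes above, 8 had thymus highest, and ARPC5 (1.16 in liver) and TCP1 (0.46 in adipose tissue) were among the 4 that did not. CSN1S2, among the 8, had no value in ileum. On the arrays of the reference against itself, 3 of the 24 named genes lay 0.3 or more from 0 on array 1, and 7 of the 23 with a value on array 2. Both were near the shares over all genes, 14.4% and 26.9%.

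**Figure D5:**
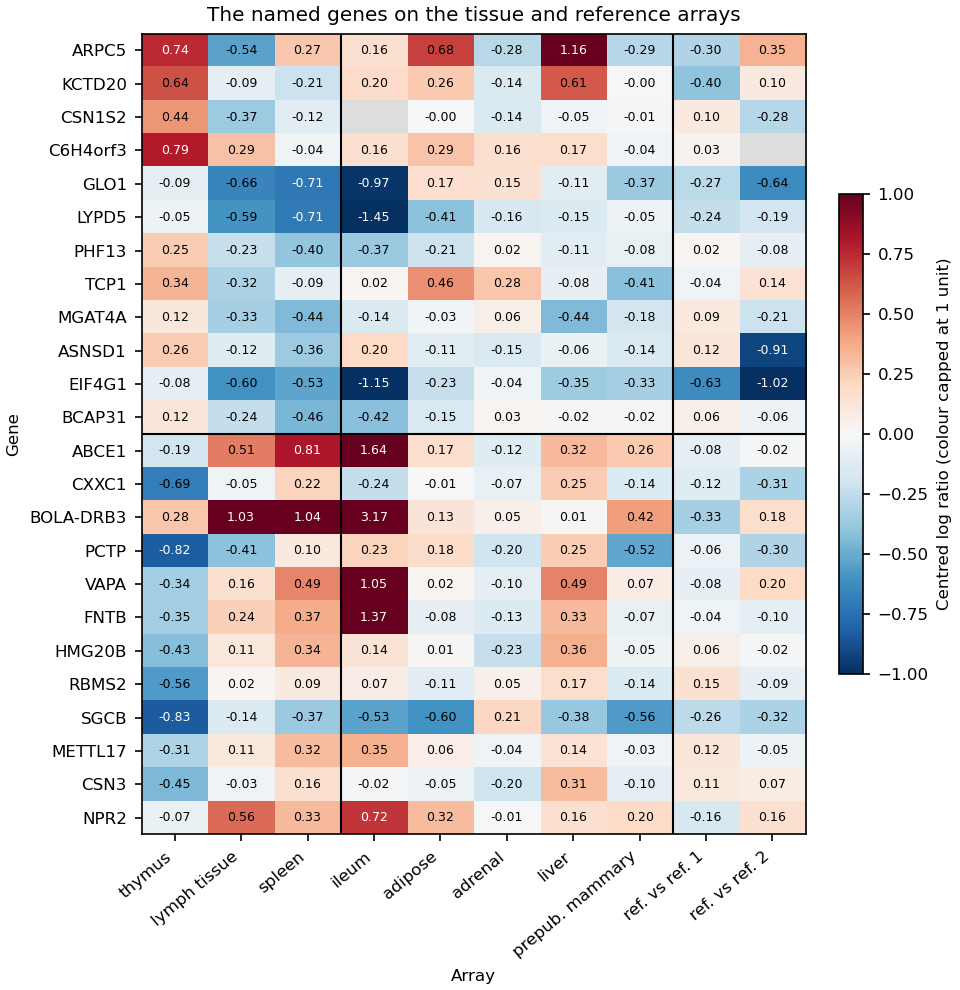
Centred log ratios of the named genes (rows, upper 12 above and lower 12 below the line) on the 3 lymphoid arrays, 5 other tissue arrays and the 2 arrays of the reference against itself. Colour is capped at 1 unit, grey means under 2 spots, and the printed numbers are the values. The thymus column is darkest blue for CXXC1, PCTP and SGCB, and the ileum column is red for the lower genes BOLA-DRB3, ABCE1, FNTB and VAPA.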

How the data were processed

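The deposited table gave 1 log ratio of 2 channels per spot for 3888 spots on each of 13 arrays. What the authors did before they deposited these log ratios (background correction, normalization, base of the logarithm, channel order) is not given in the sources used here. A single gene was assigned to 2538 spots by the platform annotation; 30 spots had several and 1320 had no gene. RefSeq (ARS-UCD2.0) held 703 of the 706 genes by gene identifier, and 0 symbols changed.

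An exact 0 (166 to 174 spots on the 3 arrays) was taken as missing, arrays were centred on the median, and spots were averaged per gene with the SD over spots, with a minimum of 2 spots on each of the 3 arrays. A gene counted as above or below when thymus lay outside both other organs and at least 0.3 log units from their mean. No test was possible with 1 array per organ. Named genes were the 12 largest on each side among those with thymus outside both by at least 0.2 and a difference over the pooled spot SD, plus list members by fixed rules. Of 26 gene lists, 5 had 0 measured genes. The members, lists and thresholds were chosen with earlier results of these data known. Alternatives changed centring, scaling, exact 0, the average, the comparator, the minimum of spots and the threshold. The contrast was tested on simulated data with independent spots and no differences between clones or positions on the array. That checks the calculation only, not the error of these arrays. Python 3.11.15, numpy 2.4.6, pandas 2.3.3 and matplotlib 3.10.9 were used. The number of arrays limits the precision, and the signal behind each ratio is unknown.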

Additional observations from a re-analysis of the deposited data

How the results depend on the processing

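The 24 genes named from the ends of the ranking kept their side and stayed past 0.3 in all 8 alternatives run on single genes, with sizes of 0.35 or more. This was largely fixed in advance, since they were chosen as the largest, with thymus outside both organs by at least 0.2. Leaving out the centring moved every gene by the same -0.02, and averaging by clone changed only KCTD20 among them. Leaving out 1 organ gave the difference from the other organ, which the margin of 0.2 had screened. Of the values of the 24 genes under these alternatives 167 moved by less than the spot SD and 25 by more. The counts of 77 above and 43 below changed with the threshold, to 152 and 106 at 0.2 and to 9 and 12 at 0.5. Other settings moved both counts, and the 343 genes for which lymph tissue and spleen agreed, by less than 1.5 times: 61 to 81 above and 38 to 53 below with both organs kept, the lowest count above (61, of which 51 were among the 77) coming from centring within runs of consecutive rows, which was added after the data were seen. On the deposited values 63 lay above and 53 below. Without spleen 77 lay above and 52 below, of which 57 and 34 were among the main 77 and 43. Without lymph tissue 92 lay above and 61 below, of which 66 and 35 were among them. With the median of spots the shared genes were 62 of 81 above and 37 of 43 below. Of the list medians under alternatives 126 moved by less than the spot SD and 2 by more: chaperones, to -0.00 with the median of spots, and antigen presentation, to -0.11 without lymph tissue. No paired analysis was possible because the organs have 1 array each.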

Other observations

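Of 440 clones without a gene name, 383 had a value on the 3 arrays. By the same rule 58 (15.1%) lay above and 21 (5.48%) below, beside 11.0% and 6.13% of named genes, with differences from -0.66 to 1.51. Leaving out a run with 6 usable spots, medians of the thymus difference over 26 runs of consecutive rows of the deposited table ran from -0.08 to 0.18, and those of lymph tissue minus spleen from -0.14 to 0.11. At most 8 genes above and 7 below lay in 1 run.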
